A study of Mus musculus with 4 samples.

Results

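Collagen genes were described across tumour, tumour margin, brain and meninges in sections of mouse brain that had been inoculated with a tumour and then resected. Members were all features whose symbol has the form Col, a number, a and a number, with identifiers marked as deprecated left out. The rule found 44 genes among 20457 genes with counts over tissue. All 44 had counts, although Col17a1 had 1 UMI in all. UMIs are unique molecular identifiers, so each counts 1 captured probe product. The spatial assay hybridised probe pairs to fixed, paraffin-embedded sections on arrays of barcoded spots. The Vehicle group had 2 capture areas, named Vehicle 1+4 and Vehicle 2+3, and the TREAT group had 2, named TREAT 1+4 and TREAT 2+3, all of day 11. The series concerns hydrogels in glioblastoma and compares hydrogel-treated with non-treated animals, 4 in all. Touching spots formed 3 large sets in Vehicle 1+4 and 2 in each of the other areas, and every set was put with the left or the right of the 2 largest, called the left and right piece. Strain, sex, age, the tumour line and the animal of each piece are not stated in the labels or the design text. The areas are therefore the replicates, and p-values measure the spread between areas, which may be technical in part.

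Collagens are extracellular proteins whose chains wind into a triple helix. Fibrillar types form the ropes of skin, bone, tendon and scar, network types such as collagen IV form the sheet under epithelia and around vessels, and fibril-associated and transmembrane types sit on fibrils or cell surfaces. Healthy brain has little fibrillar collagen outside the meninges, the choroid plexus and vessel walls, where collagen IV is the main type. The chains of collagens II, IX, X and XI are best known from cartilage.

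By class the members were 8 interstitial fibrillar, 7 cartilage-type, 6 basement membrane, 3 basement membrane zone, 6 beaded filament, 2 short-chain network, 6 fibril-associated, 4 transmembrane and 2 other chains. Together they held 0.109% of all UMIs over tissue. How many probe pairs each gene has is not stated in the labels or files, so levels of different genes are not set against each other.

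Spots over tissue numbered between 3013 and 3488 per area, with a median of 7310 to 14986.5 UMIs a spot, and both Vehicle areas were shallower than both TREAT areas. Regions came from a clustering of spots in which collagen genes took no part. Tumour spots numbered 922, 1264, 180 and 555 in Vehicle 1+4, Vehicle 2+3, TREAT 1+4 and TREAT 2+3, the order in which values are listed throughout. They lay in a pair of clusters that hardly mixed the groups. Cluster 0 held 922, 1249, 1 and 3 of them, and cluster 6, among whose leading genes were interferon-induced ones such as Isg15 and Rsad2, held 0, 15, 179 and 552. A plasma cell and stroma cluster had 106, 213, 100 and 56 spots, and a border cluster of reactive glia 122, 325, 212 and 152. The leading genes of the stroma cluster also included Gm5741, Gpr151 and Tac2. At resolution 1.0 these genes led a separate cluster, named thalamus, of 46, 149, 22 and 0 spots. Stroma values may thus be those of a mixed class, unequally between areas, and the part of this was not tested. Brain spots numbered 1741, 1613, 2474 and 1484. A cluster that no marker list named, with Lypd1, Slc30a3 and Lmo3 among its leading genes, was not counted as brain. It left 128, 3, 213 and 565 spots unnamed, so brain spots leave out unequal parts of the areas. The part of this in the brain values was not tested. No cluster was named meningeal at the resolution used, although a cluster of 72, 144, 80 and 73 spots was at resolution 1.0. Meningeal spots were therefore the 3% of the remaining spots richest in meningeal genes. They numbered 51, 82 and 112 in Vehicle 1+4, TREAT 1+4 and TREAT 2+3. Vehicle 2+3 had 19 by this choice, below the minimum of 20, and was left out of meningeal comparisons. The 21 genes that chose these spots summed to 7032 to 10136 CPM there and 543 to 603 CPM in brain, where CPM is the usual scaling of a gene's UMIs to the total of the same spots. The meningeal spots included all 38 spots of the choroid plexus cluster and 20 of the ependymal cluster.

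Promoter sequence is shown for 4 members on which the results turn. Among zones of distance from the tumour margin, the interstitial fibrillar chains Col1a2 and Col3a1 were highest just outside the tumour spots in most areas. Col9a1 and Col9a2 are cartilage-type chains that were high inside the tumour. Each window is the 250 bases before an annotated start on the plus strand, from RefSeq on build GRCm38.p6, and for Col9a1 it is the first of 2 listed. Capitals mark 4 motifs. The CCAAT motif reads ATTGG on the other strand, the TATAAA motif reads TTTATA there, the GGGCGG motif reads CCGCCC there, and the ACAAT motif reads ATTGT there and can overlap itself.
Col1a2, chr6:4505368-4505617: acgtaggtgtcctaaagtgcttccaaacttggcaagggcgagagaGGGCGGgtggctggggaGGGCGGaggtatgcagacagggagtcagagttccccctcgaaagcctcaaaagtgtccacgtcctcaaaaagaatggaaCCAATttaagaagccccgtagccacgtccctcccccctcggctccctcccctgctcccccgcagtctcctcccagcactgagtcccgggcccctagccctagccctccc
Col3a1, chr1:45311288-45311537: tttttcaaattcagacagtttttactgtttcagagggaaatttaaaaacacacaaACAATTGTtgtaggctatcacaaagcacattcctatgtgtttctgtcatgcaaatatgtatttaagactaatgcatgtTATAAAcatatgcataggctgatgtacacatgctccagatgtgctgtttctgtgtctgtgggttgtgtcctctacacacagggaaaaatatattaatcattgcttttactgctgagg
Col9a1, chr1:24177360-24177609: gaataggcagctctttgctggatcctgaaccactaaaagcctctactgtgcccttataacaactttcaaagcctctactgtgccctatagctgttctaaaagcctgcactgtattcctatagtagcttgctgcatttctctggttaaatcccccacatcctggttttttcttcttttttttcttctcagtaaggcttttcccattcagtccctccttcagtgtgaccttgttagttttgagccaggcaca
Col9a2, chr4:121039316-121039565: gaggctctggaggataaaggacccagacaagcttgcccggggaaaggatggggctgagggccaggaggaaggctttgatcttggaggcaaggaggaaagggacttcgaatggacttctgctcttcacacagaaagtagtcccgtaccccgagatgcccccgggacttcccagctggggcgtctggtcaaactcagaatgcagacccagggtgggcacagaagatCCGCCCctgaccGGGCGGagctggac
The Col1a2 window holds 1 CCAAT and 2 GGGCGG, known as the CCAAT box and the GC box. That of Col3a1 holds 1 TATAAA, the TATA motif, and 2 overlapping matches of ACAAT, letters found in the sites of Sox proteins. The Col9a2 window holds 2 GGGCGG, and the Col9a1 window holds none of these letters. A window was listed for 35 of the 44 members. GGGCGG was in 60% of these 35 windows and in 32.74% of all 32851 windows of the same length, CCAAT in 34.29% against 33.85%, TATAAA in 14.29% against 12.37% and ACAAT in 5.714% against 27.66%. A match describes letters only.

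**Figure D1:**
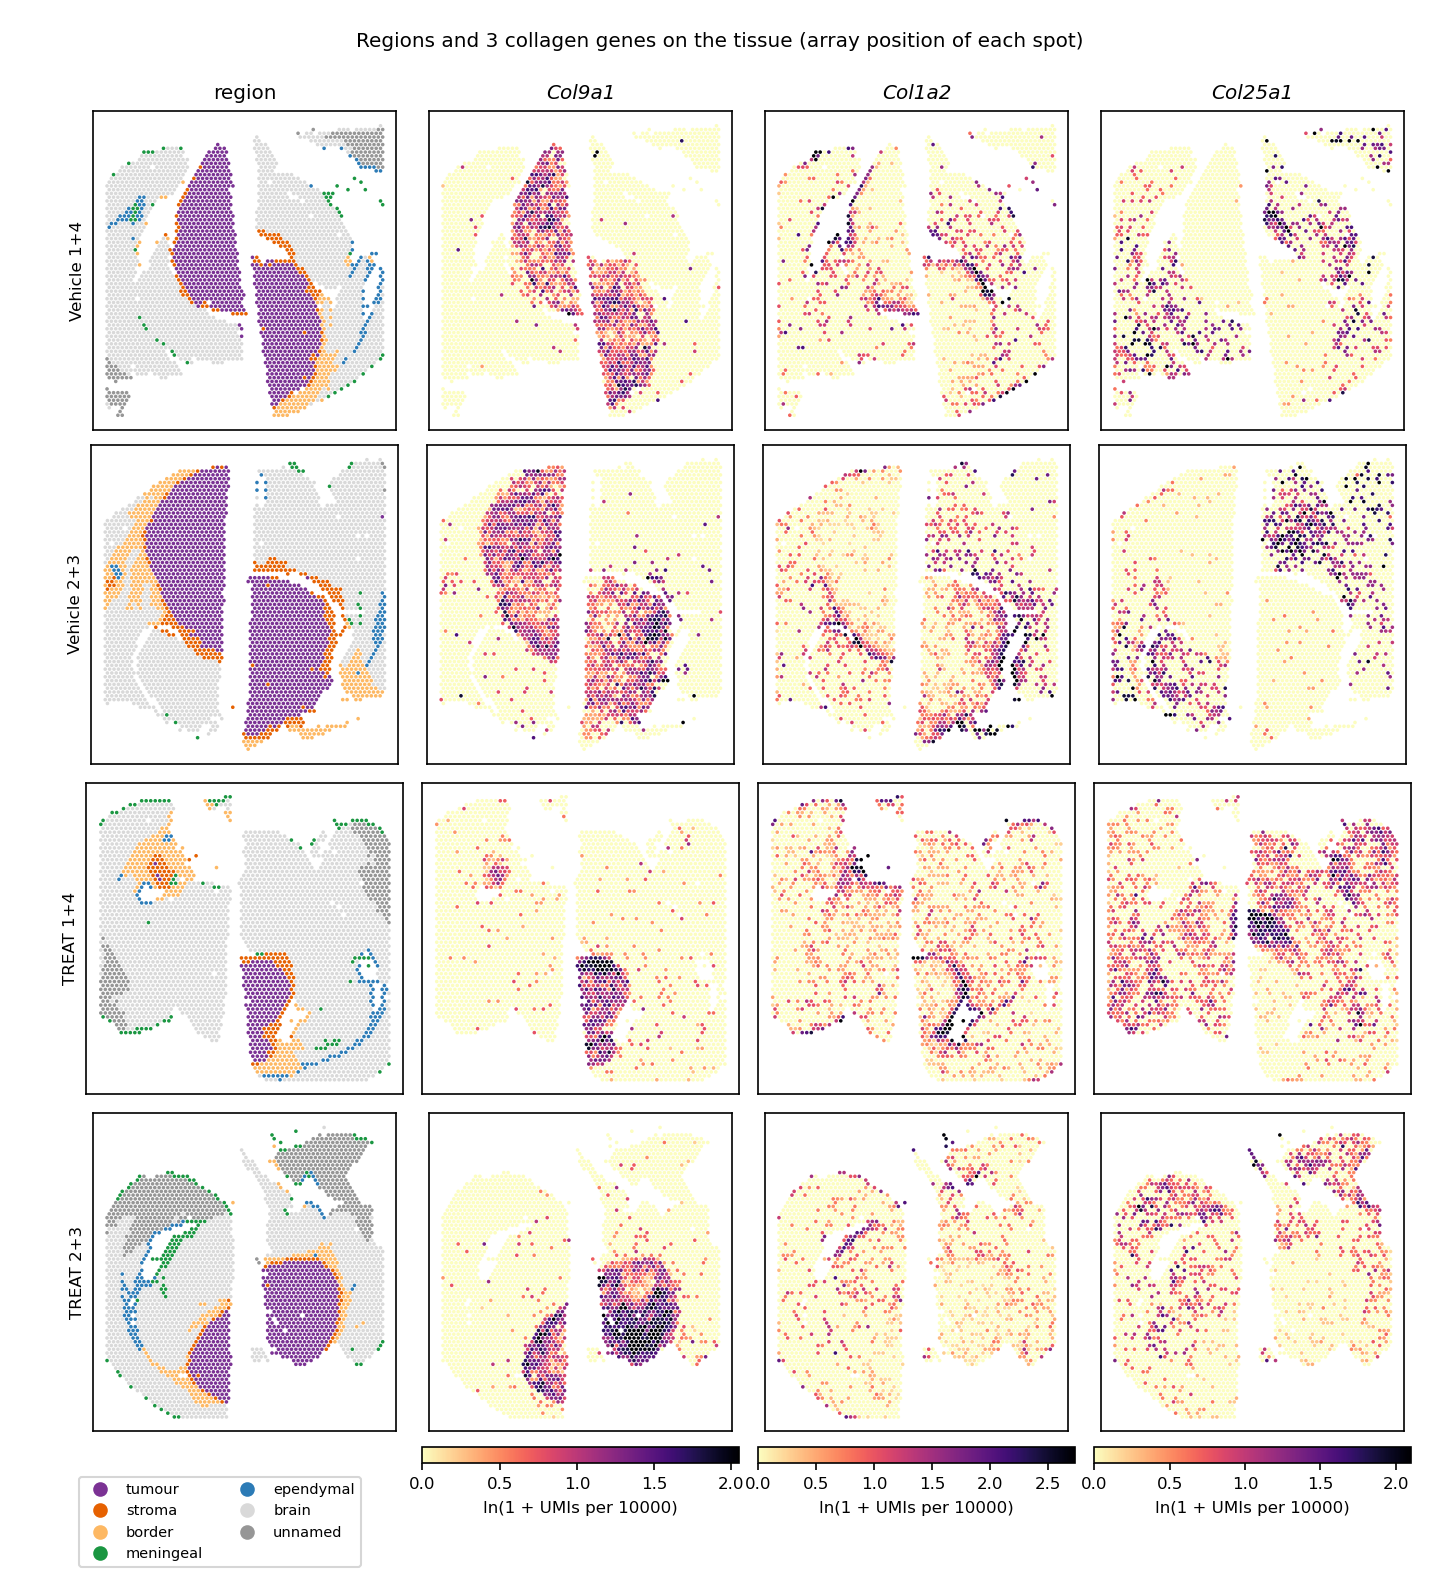
Spot maps of the 4 capture areas, with the assigned region of each spot and the level of Col9a1, Col1a2 and Col25a1 as the natural log of 1 plus UMIs per 10000, darker being higher. Col9a1 fills the tumour, Col1a2 is high at the tumour margin in all areas but TREAT 2+3, and Col25a1 lies in the brain outside the tumour.

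Inside the tumour several cartilage-type chains were far above their brain levels. Of all 43 members tested, 19 were higher in tumour than in brain spots and 8 lower, while 48.6% of 19016 genes were higher and 27.1% lower, 75.7% in all, so the share of members higher was near the background. The test was edgeR's quasi-likelihood test with Benjamini-Hochberg adjustment over all genes, on counts summed per area and region, with the area as a block, and every adjusted p comes from such a fit unless DESeq2 is named. The median log2 difference was 0.46 for members and 0.51 for all genes tested. With library totals in place of TMM scaling the all-gene median was 0.25, and 17 members were higher and 9 lower.

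Col9a1, the alpha 1 chain of collagen IX, which coats cartilage fibrils, stood at 141, 154, 289 and 307 CPM in tumour. In brain it stood at 2.72, 6.48, 3.73 and 5.47 CPM, and it was higher in tumour by 5.88 ± 0.22 on the log2 scale (SE, adjusted p = 5.37e-12, edgeR). Its partner Col9a2 stood at 255, 256, 149 and 291 CPM in tumour and at 29.0, 29.4, 30.5 and 22.3 CPM in brain, higher by 3.34 ± 0.18. In both genes the lowest tumour area lay above the highest brain area.

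Col2a1, the chain of collagen II, the main fibril of cartilage, stood at 271, 309.6, 49.1 and 149 CPM in tumour and at 10.0, 18.9, 7.03 and 7.55 CPM in brain, higher by 4.26 ± 0.28. Col11a1, a chain of collagen XI that helps fibrils to form, stood at 10.63, 11.4, 11.3 and 14.3 CPM against 3.28, 4.08, 5.44 and 4.54 CPM, higher by 1.73 ± 0.21. Col9a3, the third collagen IX chain, stood at 207, 231, 68.0 and 79.3 CPM in tumour and at 35.1, 51.4, 46.4 and 39.3 CPM in brain. It was higher in tumour by 1.88 ± 0.33, a value that pools the Vehicle areas with the lower TREAT areas. In all, 5 of 7 cartilage-type chains were higher in tumour and none lower, beside 48.6% and 27.1% of all genes tested, with a class median of 1.88. Col10a1, the collagen of growth plate cartilage, and Col11a2 did not pass the test.

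All 9 genes of a cartilage marker list had counts in tumour, and their sum was 18.0 to 33.7 CPM there and 79.7 to 98.8 CPM in brain. Sox9, which switches on Col2a1 in cartilage, made up most of the brain sum and stood at 2.47 to 4.26 CPM in tumour and 46.6 to 69.3 CPM in brain. Comp, a cartilage matrix protein, stood at 6.94 to 8.85 CPM in tumour and 1.78 to 3.30 CPM in brain. Sox10, a relative of Sox9 in neural crest and oligodendrocyte cells, stood at 257 to 394 CPM in tumour and 55.3 to 79.2 CPM in brain. The part of Sox9 or Sox10 in the collagen levels was not tested.

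Spot by spot, the correlation of Col9a1 with Col9a2 in tumour, on log-scaled counts, was 0.47, 0.41, 0.56 and 0.76. That of Col2a1 with Col9a2 was 0.36, 0.41, 0.56 and 0.71, and that of Col2a1 with Col1a2 lay between -0.07 and 0.09. These are descriptions over spots of 1 library each, which share depth.

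Of the 6 basement membrane chains 3 were higher in tumour than in brain and 1 was lower, beside 48.6% and 27.1% of all genes tested. Col4a1 and Col4a2, the collagen IV pair common to most basement membranes, are neighbours on chromosome 8, at 11198423 to 11312889 and 11312805 to 11449287 on GRCm38.p6. Col4a1 stood at 95.7, 111, 75.0 and 100.2 CPM in tumour and 53.6, 55.8, 31.0 and 45.4 CPM in brain, higher by 1.33 ± 0.12. Col4a2 stood at 90.4, 111, 105 and 122 CPM against 65.3, 74.5, 62.1 and 74.6 CPM, higher by 0.90 ± 0.10. For both chains every tumour area was above every brain area.

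Col4a5, a chain of the collagen IV network of the kidney filter, was higher by 3.22 ± 0.23, at 19.6 to 43.3 CPM in tumour and 3.09 to 4.08 CPM in brain. Its neighbour on the X chromosome, Col4a6, was lower by 2.09 (SE 0.32), at most 0.506 CPM in tumour and 1.81 CPM in brain, but it was 0.30 higher with border spots counted as tumour. All 3 chains of the basement membrane zone were higher, Col18a1, the source of endostatin, by 3.29 ± 0.17, Col7a1, the anchoring fibril chain, by 3.01 ± 0.23 and Col15a1 by 1.49 ± 0.16. Col6a3, a chain of the beaded filaments of collagen VI, was higher by 3.18 ± 0.23, while its partners Col6a1 and Col6a2 were lower by 0.95 (SE 0.23) and 1.05 (SE 0.21).

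The endothelial marker list, 10 genes all with counts, summed to 199 to 293 CPM in tumour and 203 to 308 CPM in brain. The mural cell list of 11 genes summed to 65.3 to 135 CPM in tumour and 161 to 209.9 CPM in brain. The first list overlapped between the regions and the second was lower in tumour. The part of either in the levels of Col4a1 and Col4a2 was not tested. In spots that hold several cells, fewer cells of a type and less RNA per cell cannot be told apart.

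Of the 8 interstitial fibrillar chains 4 were higher in tumour than in brain and none lower, beside 48.6% and 27.1% of all genes tested. Col3a1, the chain of reticular fibres, was higher in tumour by 2.25 ± 0.38, Col5a3 by 1.92 ± 0.22 and Col5a2, which joins collagen I fibrils as part of collagen V, by 1.04 ± 0.26. Col1a1, the main chain of collagen I, stood at 25.7, 23.7, 45.7 and 6.05 CPM in tumour and 19.03, 24.0, 10.4 and 7.82 CPM in brain and passed at 0.91 ± 0.37 (adjusted p = 0.0435, edgeR). It passed in only 2 of 13 alternative settings, and without TREAT 1+4 the difference was -0.11. Col1a2, its partner in the collagen I helix, stood at 34.6, 31.4, 61.7 and 11.4 CPM in tumour and 39.4, 50.4, 32.2 and 23.0 CPM in brain and did not pass. Tumour and brain areas overlapped for both collagen I chains.

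The chains lower in tumour included several that neurons are known to make. Col19a1, a fibril-associated chain of forebrain interneurons, was lower by 6.88 (SE 0.40), at 30.5, 17.8, 28.4 and 34.6 CPM in brain and 0.205, 0.0998, 0 and 0.298 CPM in tumour. Col25a1, a transmembrane collagen first known from amyloid plaques, was lower by 4.31 (SE 0.38), at 73.9, 97.3, 76.7 and 29.9 CPM in brain and 1.23, 1.93, 4.89 and 3.97 CPM in tumour. Col26a1 was lower by 3.56 (SE 0.40) and the transmembrane chain Col23a1 by 2.64 (SE 0.27). A list of 15 neuron markers, 14 with counts, summed to 8832 to 10476 CPM in brain and 71.8 to 115 CPM in tumour, and its part in these values was not tested.

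**Figure D2:**
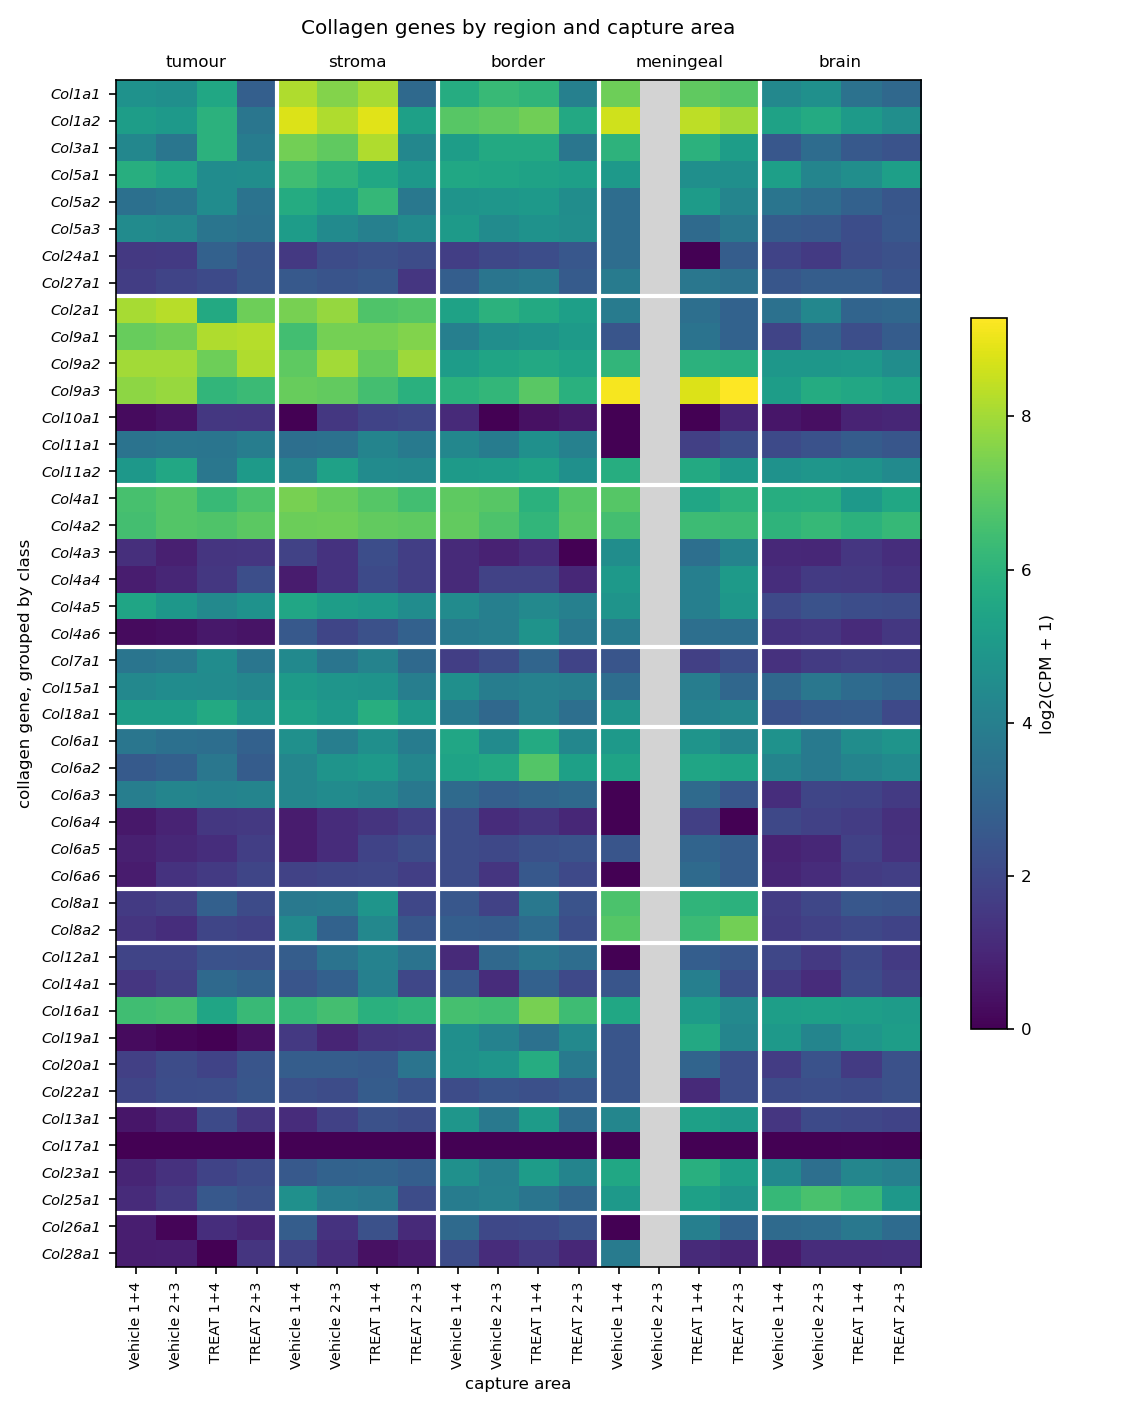
Heat map of log2(CPM + 1) for the 44 collagen genes in 5 regions of the 4 capture areas, with genes grouped by class. Col9a1, Col9a2 and Col2a1 are bright in the tumour columns, Col1a1, Col1a2 and Col3a1 in the stroma columns of all areas but TREAT 2+3, and Col25a1 and Col19a1 in the brain columns, and grey marks Vehicle 2+3, which had under 20 meningeal spots.

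The stroma spots held far more collagen I and III than the tumour spots in 3 of the 4 areas. The stroma and border regions were compared after the data had been seen. Col1a1 stood in stroma at 288, 186, 271 and 8.15 CPM, Col1a2 at 442, 292, 467 and 37.8 CPM and Col3a1 at 156, 129.8, 293 and 18.6 CPM. TREAT 2+3 was lowest in each. The fibroblast list of 12 genes summed to 266, 163, 247 and 104 CPM in the same spots, with Mfap5 at 0 in Vehicle 1+4, and Dcn, a fibroblast proteoglycan, stood at 104, 39.9, 80.6 and 9.89 CPM. This list was lowest in TREAT 2+3 as well, and its part in the collagen values was not tested.

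Of 40 members tested, 14 were higher in stroma than in tumour and 1 lower, beside 18.7% and 15.5% of 15485 genes. With library totals 17 were higher and 1 lower, beside 3411 and 838 of the 15485 genes, as the all-gene median moved from -0.08 to 0.07. Col1a2 was higher by 2.94 ± 0.40 (adjusted p = 7.41e-05, edgeR), Col1a1 by 2.68 ± 0.51, Col3a1 by 2.34 ± 0.44 and Col5a2 by 1.54 ± 0.28. The short-chain pair, which builds lattices in vessel walls and the cornea, was higher too, Col8a2 by 2.47 ± 0.36 and Col8a1 by 1.97 ± 0.36. Col12a1, which links collagen I fibrils, was higher by 1.52 ± 0.28. The 1 member lower in stroma was Col9a1, by 0.69 (SE 0.15).

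Against brain, 25 of 40 members were higher in stroma and 4 lower, beside 35.9% and 37.7% of all genes, or 73.6% in either direction. The class median was 2.12 for the fibrillar chains and 1.91 for the cartilage-type chains. Of the 25, 19 were also higher in tumour over brain, and they are all of the 19 higher there; the contrasts share the brain spots. Across stroma spots Col1a1 and Col1a2 correlated at 0.84, 0.65, 0.92 and 0.62, and Col2a1 and Col1a2 between -0.33 and -0.11.

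Stroma values differed between the pieces of an area. Col1a1 stood at 43.5 CPM in 34 stroma spots of the left piece of TREAT 1+4 and at 448 CPM in 66 of its right piece. In Vehicle 1+4 the left and right pieces stood at 390.2 and 238 CPM, and in Vehicle 2+3 at 135 and 263 CPM. Both pieces of TREAT 2+3 were low, at 8.28 and 8.07 CPM in 24 and 32 spots. The left piece of TREAT 1+4 was thus below every Vehicle piece as well.

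These chains were also described by distance from the margin of the tumour spots, in steps of 1 spot. Outside means any spot not named tumour, stroma and border spots included, so the zones do not mark the edge of the tumour tissue. At 4 steps or more inside, Col1a2 stood at 12.5, 20.3, 30.1 and 8.84 CPM, and at 1 to 2 steps outside it stood at 355, 236, 421 and 34.7 CPM. It stood at 85.0, 127, 127 and 26.2 CPM at 3 to 5 steps outside and at 42.8, 65.6, 32.5 and 34.7 CPM beyond 10 steps. A peak just outside the tumour spots was seen in 3 areas, and in TREAT 2+3 the level there was no higher than beyond 10 steps after rounding.

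Col9a1 had no such peak. It stood at 144, 147, 230.5 and 312 CPM deep inside, at 76.5, 145, 159 and 121 CPM at 1 to 2 steps outside and at 3.81, 14.9, 18.0 and 11.8 CPM at 3 to 5 steps. Col25a1 stood at 0.955 to 6.02 CPM deep inside and at 18.6 to 50.7 CPM at 3 to 5 steps outside. The zones were described and not tested.

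**Figure D3:**
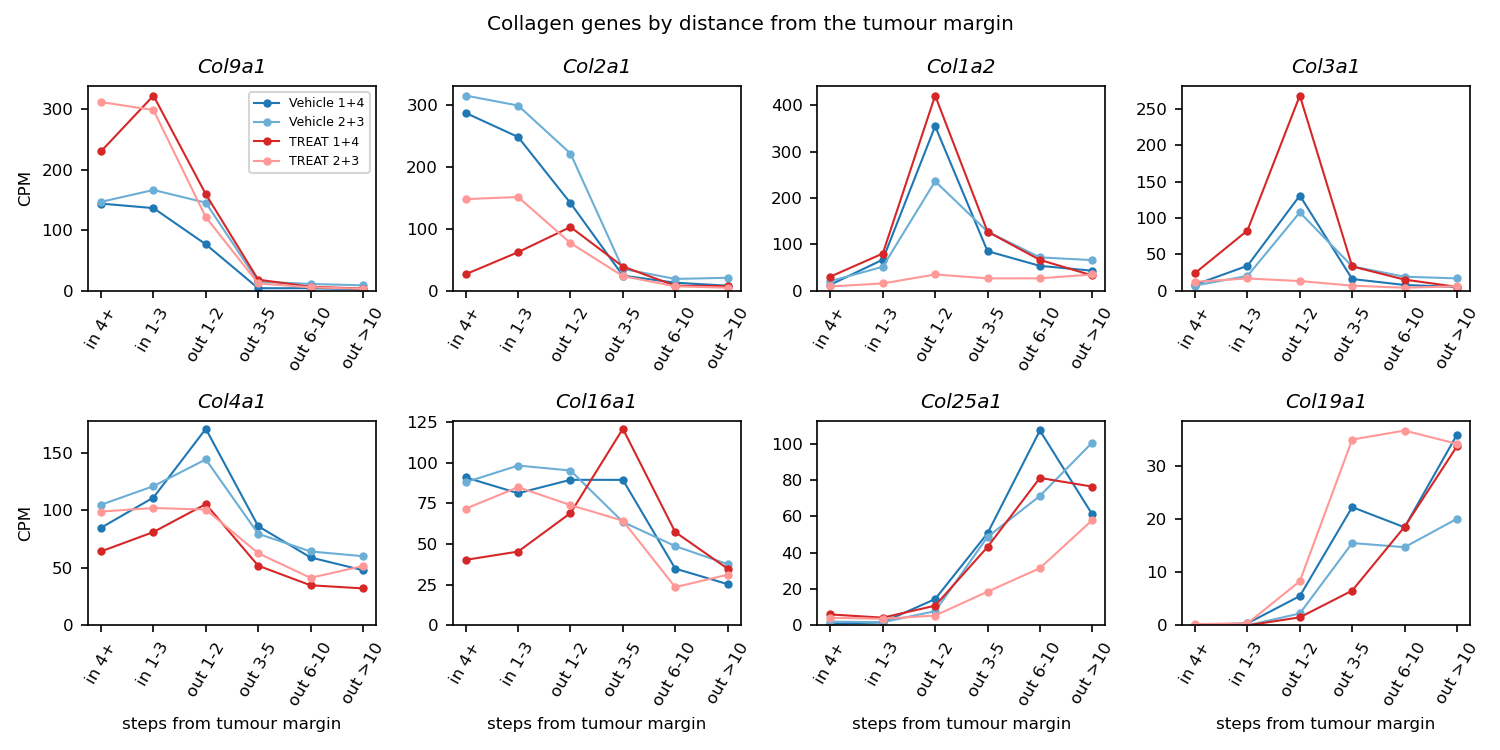
Level in CPM of 8 collagen genes by distance from the tumour margin in steps of 1 spot, with 1 line per capture area. Col1a2 peaks 1 to 2 steps outside the margin in all areas but TREAT 2+3, Col9a1 drops across the margin, and Col25a1 is low inside the tumour.

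In the border of reactive glia, of 40 members 23 were higher there than in brain and 3 lower, beside 24.9% and 33.7% of 15485 genes, or 58.7% in either direction. With library totals 27 were higher and 2 lower, as the all-gene median moved from -0.09 to 0.12. Of the 8 interstitial fibrillar chains 6 were higher, with a median of 1.42 over the class, and of the 6 basement membrane chains 4 were. Col1a2 stood at 116, 128, 155 and 48.1 CPM and was higher by 1.32 ± 0.40, with TREAT 2+3 far below the other areas. Col4a6 stood at 12.9, 14.6, 26.1 and 12.2 CPM and was higher by 3.24 ± 0.28. The fibril-associated chain Col20a1, at 24.6, 27.5, 52.6 and 13.2 CPM, was higher by 3.13 ± 0.35. Col13a1, a transmembrane collagen of cell adhesion sites, stood at 28.1, 12.5, 33.2 and 8.99 CPM and was higher by 2.66 ± 0.35. For these last 3 genes every border area was above every brain area.

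The meningeal spots, chosen by their meningeal genes, were rich in collagen I. Genes made by the same cells can be high in these spots through that choice, and its part was not tested. Of 43 members 20 were higher there than in brain and none lower, beside 10.2% and 11.3% of 19016 genes. Col1a2 stood at 391, 325 and 250.1 CPM in Vehicle 1+4, TREAT 1+4 and TREAT 2+3, higher by 3.21 ± 0.33 (adjusted p = 3.12e-05, edgeR). Col1a1 stood at 148, 128 and 114 CPM, higher by 3.36 ± 0.47, and Col3a1 at 63.0, 62.4 and 34.7 CPM, higher by 3.00 ± 0.53. All 3 meningeal areas were above every brain area for these genes, and 5 of the 8 fibrillar chains were higher.

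Choroid plexus and ependymal spots weighed on this count. Without the spots of those clusters 11 members were higher and none lower, and with the outermost spots of the tissue in place of the chosen ones 3 were higher. Col9a3 went from 576, 446 and 625 CPM to 50.4, 84.8 and 70.7 CPM without them. Col8a2 went from 112, 78.9 and 159 CPM to 21.6, 16.0 and 14.8 CPM. Col1a2 stood at 504, 344 and 210.4 CPM without them, so its level did not rest on those spots. In the outermost spots of the tissue Col1a2 stood at 89.5, 59.6, 59.8 and 54.2 CPM in the 4 areas, with tumour, border and stroma spots left out.

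Tumour and meningeal spots differed in the kind of chain. Of 43 members 11 were higher in tumour and 17 lower, beside 31.5% and 23.0% of all genes, or 54.5% in either direction. With library totals 10 were higher and 18 lower, as the all-gene median moved from 0.22 to -0.09, which turned the balance of all calls from 57.9% higher to 47.0%. Of the cartilage-type chains 4 of 7 were higher and 1 lower, led by Col9a1 at 5.28 ± 0.36 and Col2a1 at 4.16 ± 0.48. Of the 8 fibrillar chains none was higher and 3 were lower, Col1a2 by 3.12 (SE 0.33), Col1a1 by 2.45 (SE 0.46) and Col27a1 by 1.44 (SE 0.39). Col9a3 was lower in tumour by 1.87 (SE 0.37), yet it was 0.61 higher without the choroid plexus and ependymal spots.

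Genes that make and handle collagen were described beside the chains, from lists chosen with earlier results of these data known. Of 29 genes of collagen folding, modification, processing and crosslinking, 23 were higher in tumour than in brain and 4 lower, with a median of 1.84 beside 0.51 for all genes tested, of which 48.6% were higher and 27.1% lower. Pcolce, which enhances procollagen cleavage, was higher by 5.35 ± 0.18, Serpinh1, the collagen chaperone, by 3.96 ± 0.15 and Crtap, part of a prolyl hydroxylase complex, by 3.34 ± 0.13. Of 12 receptor and turnover genes 9 were higher and none lower, with the collagen receptor Ddr2 at 4.83 ± 0.17 and the membrane protease Mmp14 at 2.87 ± 0.14. In meningeal spots 12 of the 29 were higher than in brain and 1 lower, beside 10.2% and 11.3% of all genes. In stroma 21 were higher and 4 lower, beside 35.9% and 37.7%.

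In the tumour 16 of 41 members tested differed between TREAT and Vehicle, 7 higher and 9 lower, beside 13.6% and 21.1% of 19665 genes, or 34.7% in either direction. The members' share was thus near that of all genes. Almost all TREAT tumour spots lay in cluster 6 and almost all Vehicle tumour spots in cluster 0, the clusters had medians of 35482.5 (cluster 6) and 21794 (cluster 0) UMIs a spot, and the part of the split or of depth in the differences was not tested. With library totals the all-gene median moved from 0.04 to 0.51, and 11 members were higher and 5 lower. Every one of the 16 called here kept its direction in all alternatives run. Differences below are TREAT over Vehicle on the log2 scale.

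Col9a3 had the lowest p. It stood at 207, 231, 68.0 and 79.3 CPM and fell by 2.04 (SE 0.18, adjusted p = 1.16e-09, edgeR), with both TREAT areas far below both Vehicle areas. It passed in 14 of 14 alternative settings, with values from -2.13 to -1.57. By piece of tissue, the Vehicle levels were 227, 185, 245 and 209 CPM, and the TREAT levels 69.1, 129 and 61.9 CPM. The left piece of TREAT 1+4 had 3 tumour spots and was not used, and the other pieces did not overlap between groups.

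The other collagen IX chains differed from it. Col9a1, at 141, 154, 289 and 307 CPM, rose by 0.55 ± 0.18 (adjusted p = 0.0167, edgeR), with both TREAT areas above both Vehicle areas, and by 1.02 with library totals. Col9a2, at 255, 256, 149 and 291 CPM, passed at -0.69 ± 0.23, but its groups overlapped, and with library totals it stood at -0.21 (adjusted p = 0.502, edgeR).

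Col2a1 stood at 271, 309.6, 49.1 and 149 CPM, with both TREAT areas below both Vehicle areas. Its difference of -2.01 ± 0.69 did not pass (adjusted p = 0.148, edgeR), and the TREAT areas were far apart. Col10a1, at 0.205, 0.366, 1.85 and 1.79 CPM, rose by 2.11 ± 0.51, and Col11a1 stood at -0.23 ± 0.23 and did not pass.

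Of the fibrillar chains Col5a1 and Col5a3, both of collagen V, fell. Col5a1, which helps to set the width of collagen I fibrils, stood at 55.6, 44.2, 21.9 and 22.3 CPM and fell by 1.65 (SE 0.21, adjusted p = 1.69e-07, edgeR). Col5a3 stood at 21.4, 19.4, 11.1 and 9.97 CPM and fell by 1.44 (SE 0.23). The groups did not overlap for either, and both passed in 14 of 14 alternative settings. Col5a2, at 9.66, 11.1, 21.9 and 10.7 CPM, did not pass, and Col24a1, a minor fibrillar chain of bone, at 1.90, 1.96, 6.41 and 4.51 CPM, rose by 0.97 ± 0.33.

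Collagen I and III did not pass in tumour. Col1a1 stood at 25.7, 23.7, 45.7 and 6.05 CPM, so that the Vehicle areas lay between the TREAT areas, and its difference was -0.50 ± 1.29. Col1a2 gave -0.39 ± 1.11, and Col3a1, at 18.7, 11.6, 61.4 and 13.9 CPM, gave 0.79 ± 1.07. Errors this large leave changes of moderate size in either direction undetectable.

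Of the basement membrane chains Col4a5, at 43.3, 29.3, 19.6 and 25.4 CPM, fell by 1.15 (SE 0.22) and passed in 14 of 14 alternative settings. Col4a1, at 95.7, 111, 75.0 and 100.2 CPM, passed at -0.70 ± 0.18, but its areas overlapped, and with library totals it stood at -0.23 (adjusted p = 0.28, edgeR). Col4a2 stood at -0.30 ± 0.18 and did not pass. Col15a1, at 19.2, 21.7, 21.1 and 18.3 CPM, passed at -0.54 ± 0.21 and in 2 of 14 alternative settings, its areas overlapping as well. Col4a4, of the kidney filter network, stood at 0.668, 0.998, 1.85 and 3.67 CPM and rose by 1.34 ± 0.41.

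Col16a1, a fibril-associated chain, stood at 87.0, 91.7, 43.5 and 77.01 CPM and fell by 1.03 (SE 0.20). Col6a1 stood at 11.4, 9.88, 9.27 and 6.45 CPM and fell by 0.96 (SE 0.26), a call lost with library totals. Col14a1, which sits on fibril surfaces, stood at 1.80, 2.40, 8.09 and 6.50 CPM and rose by 1.29 ± 0.31. Of the 3 transmembrane chains tested 2 rose, Col25a1, at 1.23, 1.93, 4.89 and 3.97 CPM, by 0.96 ± 0.35 and Col13a1, at 0.462, 0.865, 3.20 and 1.69 CPM, by 1.22 ± 0.46. Of the 7 members that rose, all but Col9a1 were thus below 10 CPM in every area. With a floor of 10 CPM 5 members were called, 1 higher and 4 lower.

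Marker lists of other cells stood beside these values as follows. The endothelial list summed to 288, 293, 199 and 271 CPM in tumour, the mural cell list to 65.3, 89.9, 103 and 135 CPM and the fibroblast list to 62.6, 59.9, 85.0 and 51.7 CPM. Every gene of the 3 lists had counts in each area. The mural sum was higher in both TREAT areas than in both Vehicle areas, the endothelial sum lower in both, and the fibroblast sum overlapped, and their part in the collagen values was not tested.

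**Figure D4:**
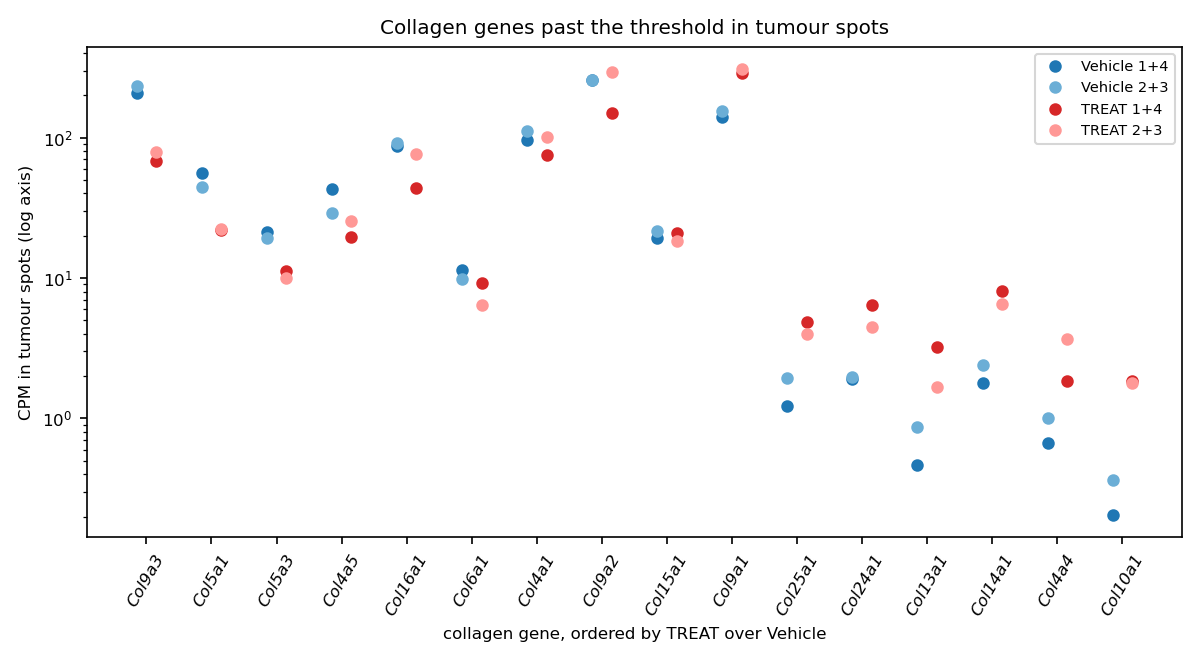
Level in CPM, on a log axis, of the 16 collagen genes that passed the TREAT over Vehicle test in tumour spots, with 1 point per capture area. Both TREAT areas lie below both Vehicle areas for Col9a3, Col5a1, Col5a3 and Col4a5 and above them for Col9a1, and the groups overlap for Col9a2, Col4a1 and Col15a1.

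**Figure D5:**
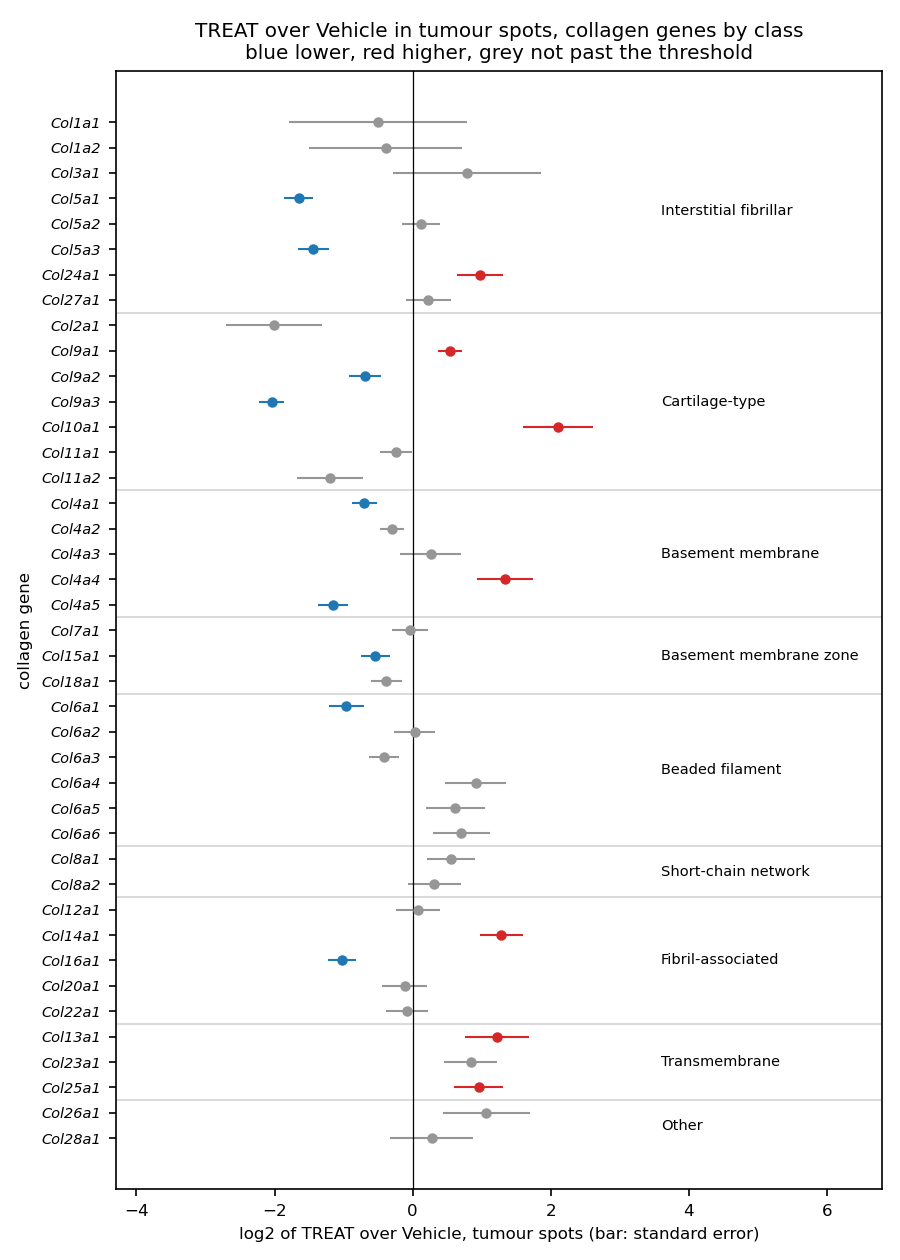
Log2 difference of TREAT over Vehicle in tumour spots for the 41 collagen genes tested, by class, with bars of 1 SE on each side, red for higher, blue for lower and grey for not past the threshold. Of the 16 that passed, 7 lie above 0 and 9 below, and Col1a1, Col1a2 and Col3a1 have wide bars.

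Of the 29 collagen-making genes 2 were higher and 13 lower in TREAT tumour, with a median of -0.44 beside 0.04 for all genes tested, of which 13.6% were higher and 21.1% lower. Pcolce2 fell by 1.19 (SE 0.19), P3h4 by 1.14 (SE 0.18), Serpinh1 by 1.01 (SE 0.19) and Adamts14, a procollagen protease, by 1.02 (SE 0.20). Of the 12 receptor and turnover genes none was higher and 4 were lower, with the collagen receptor Ddr1 down by 1.46 (SE 0.18) and Mmp14 by 1.01 (SE 0.20). In brain neither list had a call, and the collagen-making genes had a median of -0.36 there. In the test of the TREAT difference in tumour against that in brain, the collagen-making genes had no call either, with a median of 0.01.

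In stroma 31 members were tested, and 3 were lower in TREAT and none higher, beside 2.16% and 0.398% of 13312 genes, or 2.55% in either direction. Col9a3, at 139, 133, 89.4 and 58.2 CPM, fell by 0.93 (SE 0.20, adjusted p = 0.0375, edgeR). Col2a1, at 164, 225, 104 and 113 CPM, fell by 0.92 (SE 0.20), and Col5a1, at 85.0, 65.7, 45.5 and 29.7 CPM, by 1.03 (SE 0.23). Both TREAT areas lay below both Vehicle areas for each. With library totals none passed, beside 86 of the 13312 genes. The 3 calls also did not hold without Vehicle 2+3, and the number of calls changed with other areas left out. Col1a1, Col1a2 and Col3a1 differed by -0.79 ± 1.74, -0.59 ± 1.47 and 0.08 ± 1.52, with TREAT 2+3 far below the other areas.

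In brain spots none of 43 members passed by edgeR, beside 0.0215% of 18593 genes higher and 0.0% lower. At an unadjusted p under 0.05 there were 9 members, beside 3490 of the 18593 genes, and DESeq2 called 3 members, all lower, beside 345 genes. Col1a1, at 19.03, 24.0, 10.4 and 7.82 CPM, had both TREAT areas below both Vehicle areas and a difference of -1.37 ± 0.22 (adjusted p = 0.125, edgeR). Col1a2 gave -0.83 ± 0.20 (adjusted p = 0.162, edgeR) and Col9a3 gave -0.14 ± 0.20. The brain spots of the groups came from unequal parts of the brain. The striatum cluster had 0, 4, 177 and 153 spots, and midbrain spots numbered 369, 121, 38 and 93. Some members differ in level between brain regions, as given below. The part of this makeup in the brain differences, or in the absence of calls, was not tested. The absence of calls by edgeR depended on the areas used, as some members passed, all lower, when either TREAT area was left out.

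In meningeal spots none of 30 members and none of 11815 genes passed by edgeR, a background of 0.0%, with 1 Vehicle area against 2 TREAT areas. At an unadjusted p under 0.05 there was 1 member, and DESeq2 called 0. Col1a2 gave -0.46 ± 0.27 and Col1a1 -0.31 ± 0.31. The lone Vehicle area is assumed to vary as the TREAT areas do.

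Over the whole tissue 6 of 43 members were lower in TREAT and none higher, beside 4.94% and 0.903% of 20265 genes, or 5.85% in either direction. These were Col9a3 by 1.65 (SE 0.25), Col2a1 by 2.50 (SE 0.52), Col4a5 by 1.62 (SE 0.33), Col5a3 by 1.54 (SE 0.27), Col18a1 by 1.20 (SE 0.25) and Col5a1. Of the 6, 4 were also lower within the tumour, from the same libraries. Col18a1, at 24.0, 27.2, 13.6 and 14.4 CPM over the whole tissue, did not pass in tumour, where it stood at 35.1, 35.5, 48.6 and 27.9 CPM. Tumour spots were fewer in both TREAT areas than in both Vehicle areas. All of the 6 but Col5a1 were higher in tumour than in brain, beside 48.6% of 19016 genes tested there. The part of tumour size in these values was not tested.

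These calls depended on single areas. They were lost without Vehicle 1+4 and without Vehicle 2+3, and more members passed without TREAT 2+3. With library totals 5 were lower and 4 higher, as the all-gene median moved from 0.13 to 0.47.

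The TREAT over Vehicle difference itself differed between tumour and brain in 2 of 43 members, 1 higher and 1 lower, beside 0.33% and 0.56% of 19998 genes, or 0.89% in either direction. Brain values in this contrast come from the same unequal parts of the brain, and the effect of this was not tested. Col9a3 was lower by 1.76 (SE 0.20, adjusted p = 0.045, edgeR) and Col25a1 higher by 2.21 ± 0.33 (adjusted p = 0.0476, edgeR). Neither passed with library totals or without either Vehicle area, and more members passed when either TREAT area was left out.

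Levels by brain region are given as means over areas with SD and no test, from areas with at least 20 spots of the region. The cortex class joined 3 clusters, 1 of which had 2 meningeal genes and 1 cortical gene among its 10 leading genes and another 1 hippocampal and no cortical gene, so cortex values are those of a mixed class. Col25a1 stood at 117 ± 13.7 CPM in hypothalamus spots (n = 3), 103 ± 37.8 CPM in thalamus (n = 4) and 19.7 ± 1.62 CPM in cortex (n = 4). Hypothalamus and thalamus lay within their spread of each other, and each was above cortex in every area with a value for both. TREAT 2+3, lowest in brain for Col25a1, had under 20 hypothalamus spots and 256 thalamus spots, against 368 to 685 in the other areas, and the part of this in its level was not tested.

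Col19a1 stood at 47.8 ± 14.1 CPM in cortex, 43.8 ± 8.88 CPM in hippocampus and 3.78 ± 1.35 CPM in thalamus (n = 4 each), and the first 2 lay within their spread. Col5a1 stood at 76.6 ± 12.6 CPM in cortex, and its means in the 6 other brain regions were 8.09 to 12.3 CPM. Col6a1 stood at 85.4 and 89.4 CPM in the 2 areas with at least 20 striatum spots and at 43.2 ± 10.7 CPM in cortex. Col11a2 stood at 66.1 ± 12.5 CPM in oligodendrocyte-rich spots and Col9a3 at 101 ± 20.6 CPM there, against 24.7 ± 3.33 CPM in cortex.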

How the data were processed

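Probe-based spatial libraries of 4 capture areas were analysed. The deposited matrices hold raw UMI counts of each gene in each spot. Per the submitters' processing notes, the tools were Space Ranger 2.1.1, R 4.4.1 and Seurat, with build mm10. Spots with at least 500 UMIs were clustered without collagen genes (scanpy 1.11.5, leidenalg 0.10.2; 2000 variable genes, 30 principal components, 15 neighbours, resolution 0.6), and clusters were named from marker lists. Counts were summed per area and region with at least 20 spots and tested with edgeR 4.0.16 in R 4.3.3 (TMM, filterByExpr, robust quasi-likelihood test, Benjamini-Hochberg threshold 0.05); the SE is the log2 difference over the root of F. Region contrasts pooled Vehicle and TREAT areas and had the area as a block. The script was tested on simulated data. Members and lists were chosen with earlier results of these data known. By the naming rule, members past the threshold in a TREAT over Vehicle comparison and the chains Col1a1, Col1a2, Col3a1, Col4a1, Col4a2, Col9a3 and Col11a1 are given in full, others by ranges, counts and up to 4 examples a class with the smallest p; piece, zone and brain-region examples were chosen after their values were seen. Alternatives were DESeq2 1.42.0, library totals, no filter or a 10 CPM floor, each area left out, a replicate block and other region settings.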

Additional observations from a re-analysis of the deposited data

Results flagged for a closer look

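The TREAT over Vehicle difference differed between tumour and brain for Col9a3, by -1.76 on the log2 scale (SE 0.20, adjusted p = 0.045, edgeR), as tested by the interaction of treatment and region. Within tumour the Col9a3 difference was -2.04 ± 0.18, with levels of 207, 231, 68.0 and 79.3 CPM, and within brain it was -0.14 ± 0.20, with levels of 35.1, 51.4, 46.4 and 39.3 CPM. It passed in 7 of 13 alternative settings.

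The same test gave 2.21 for Col25a1 (SE 0.33, adjusted p = 0.0476, edgeR). Within tumour the Col25a1 levels were 1.23, 1.93, 4.89 and 3.97 CPM, and within brain they were 73.9, 97.3, 76.7 and 29.9 CPM, with TREAT 2+3 lowest and with under 20 hypothalamus spots. It passed in 5 of 13 alternative settings. The part of that makeup in the value was not tested.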

How the results depend on the processing

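For members called in the main fit of a planned comparison, 1081 values under alternative settings kept their direction and side of the threshold. A further 211 kept the direction only and 10 turned. Members called only under an alternative setting are not in these counts. With border spots as tumour, Col13a1 and Col4a6 in tumour over brain became 0.17 and 0.30, and leaving out 1 area gave -0.11 (without TREAT 1+4) to 1.13 for Col1a1. At resolution 1.0, Col4a3 and Col9a3 in meningeal over brain became -0.11 and -0.25, and Col9a3 in tumour over meningeal 1.71. The last was 0.60 with the tissue edge and 0.61 without the ependymal clusters. At resolution 0.4, Col4a1 and Col4a2 in tumour over meningeal became -0.058 and -0.021. Counts of members called changed as follows. Whole-tissue calls, 6, became 16 with DESeq2 and 0 with a 10 CPM floor. Tumour calls, 16, became 5 with that floor and 10 with border as tumour. Brain calls, 0, became 3 with DESeq2. Meningeal over brain calls, 20, became 3 with the tissue edge and, in a setting added after the data had been seen, 11 without ependymal clusters. Tumour over meningeal calls, 28, became 16 with the floor. Calls of the difference between tumour and brain, 2, became 0 with library totals, the floor, collagens kept in the clustering or border as tumour, 1 at resolution 0.4 or without mixed cortex spots, and 7 with no filter. Leaving out 1 area gave 0 to 16 calls in whole tissue, 12 to 18 in tumour, 0 to 5 in brain, 0 to 0 in meningeal spots, 14 to 18 in meningeal over brain, 24 to 27 in tumour over brain, 24 to 28 in tumour over meningeal and 0 to 14 for the difference between tumour and brain. The cause of these changes was not tested.

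With the label number as a replicate block, 22 members were called in whole tissue, 18 in tumour, 0 in brain and, in the added comparison, 5 in stroma. Deviations of same-numbered areas correlated at 0.49 in whole tissue, 0.31 in stroma, -0.16 in tumour and -0.19 in brain, over only 2 pairs, so the numbers were not taken as a pairing. The crossed pairing, added after the data had been seen, called 15 members in tumour and 4 in brain. With 2 areas a group, precision is limited, and members of a few UMIs per area, such as Col10a1, rest on small counts.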

Other observations

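Choroid plexus spots, 10, 8 and 20 in Vehicle 1+4, TREAT 1+4 and TREAT 2+3, had a collagen profile of their own. Col9a3 stood there at 2245, 1494 and 1539 CPM, against 75.7 to 133 CPM in the neighbouring ependymal cluster. Col8a1 stood at 358, 245 and 147 CPM and Col8a2 at 415, 264 and 394 CPM. The ependymal cluster had 2.70 to 5.77 CPM of Col8a1 and 30.2 to 54.5 CPM of Col8a2, so the choroid plexus spots were higher in every area for these 3 genes. Col4a3 and Col4a4, chains known from the kidney filter, stood at 94.3, 23.1 and 40.6 CPM and 113, 41.6 and 76.2 CPM. These spots are few and the values carry no test.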
